A study of Mus musculus with 2 samples.

Results

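Antisense noncoding RNAs are transcripts that an annotation places on the opposite strand of another gene. Here they are the transcripts that GENCODE M21 types as antisense, leaving out Airn and Kcnq1ot1, and their values were summed per gene. There were 4504 such transcripts in 3089 genes, of 141767 transcripts in 55450 genes that the tables hold. They were measured by total RNA sequencing of the adrenal gland of male B6CASTF1/J mice, an F1 cross of C57BL/6J and CAST/EiJ, at 36 days of age. Per the labels, each directional library was depleted of ribosomal RNA and made from 300 ng of RNA with ERCC spike-in RNA added. The 2 libraries form 1 group, are called replicate 1 and replicate 2 by their labels, and the study has no contrast between conditions. The labels conflict on whether the libraries come from 1 animal or from different animals, so differences between them may be technical.

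Antisense transcription can act on its sense neighbour through the act of transcription itself, through the chromatin of a shared promoter or through pairing of the RNAs, and some antisense genes also carry small RNAs in their introns. Many start close to, or run across, genes for developmental regulators such as the Hox clusters, and classic examples silence imprinted genes or the X chromosome. Antisense RNAs are often spliced, kept in the nucleus and present at low levels.

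Each library came with a pair of transcript tables. The first holds estimated counts taken from the reads and a transcript index and is called the est_counts table. The other holds expected counts taken from an alignment to the transcriptome and is called the expected_count table. Levels are TPM, the deposited abundance corrected for transcript length and scaled to the same sum in every table. Entries that name a gene summed to 35062188 counts in replicate 1 and 27747344 in replicate 2 of the est_counts table, and to 35506453 and 30164128 in the expected_count table. Adrenal cortex markers (Star, Cyp11a1, Cyp11b1 and Hsd3b1) summed to 23320 and 17120 TPM and chromaffin cell markers (Th, Dbh, Pnmt and Chga) to 1700 and 2213 TPM. Genes of pancreatic acinar cells (Pnlip, Cpa1, Ctrb1 and Cela2a) summed to 0.383 TPM in replicate 1 and 13120 TPM in replicate 2, so the libraries also differ in the level of acinar genes. For any gene in such whole-tissue samples, fewer cells of a type and less RNA per cell cannot be told apart. How the counting treated strand is not stated in the labels or the deposited notes. Where exons of an antisense gene and its partner overlap, reads that lie wholly within the shared bases are separable only if the counting used the strand.

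The stretches below show how the antisense RNAs of 6 loci that the results turn on lie over their partners. Each is 90 bases of an antisense exon, read 5′ to 3′ along the antisense RNA, and capitals mark the bases opposite the partner's coding sequence (GENCODE M21, mm10). A530020G20Rik, the most abundant member, lies opposite Slc44a3, a choline transporter-like gene, at chr3:121531712-121531801 on the plus strand. Brip1os lies opposite Med13, a Mediator kinase module subunit, at chr11:86285083-86285172, plus strand. Ctcflos lies opposite Ctcfl, the germ cell paralog of CTCF, at chr2:173113513-173113602, plus strand. Kcnmb4os2 lies opposite Kcnmb4, a regulatory subunit of BK potassium channels, at chr10:116473163-116473252, plus strand. Gm17276 lies opposite Notch3, a Notch receptor of vascular smooth muscle and pericytes, at chr17:32139740-32139829, plus strand. Galnt6os lies opposite Galnt6, an enzyme that starts mucin-type O-glycosylation, at chr15:100696517-100696606, plus strand.
A530020G20Rik: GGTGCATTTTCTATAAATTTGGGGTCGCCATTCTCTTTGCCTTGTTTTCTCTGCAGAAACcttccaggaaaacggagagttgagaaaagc
Brip1os: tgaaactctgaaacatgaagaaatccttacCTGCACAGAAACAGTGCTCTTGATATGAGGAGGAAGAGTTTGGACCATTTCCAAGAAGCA
Ctcflos: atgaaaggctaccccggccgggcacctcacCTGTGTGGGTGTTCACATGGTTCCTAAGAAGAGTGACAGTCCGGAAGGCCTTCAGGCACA
Kcnmb4os2: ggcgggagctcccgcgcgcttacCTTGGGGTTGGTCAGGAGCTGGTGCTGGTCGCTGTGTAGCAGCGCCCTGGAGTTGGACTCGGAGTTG
Gm17276: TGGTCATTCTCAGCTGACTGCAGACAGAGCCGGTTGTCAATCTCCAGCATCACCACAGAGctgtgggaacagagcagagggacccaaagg
Galnt6os: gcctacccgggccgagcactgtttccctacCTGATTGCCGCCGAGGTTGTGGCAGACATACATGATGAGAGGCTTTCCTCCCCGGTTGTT
In Brip1os, Ctcflos, Kcnmb4os2 and Galnt6os the lower-case bases that touch the capitals are ac. On the partner's strand these read gt, the bases that open an intron. In A530020G20Rik and Gm17276 they are ct, which read ag on the partner's strand, the bases that close an intron. In all 6 stretches the antisense exon therefore runs across an exon border of its partner without a break.

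Most antisense genes gave little or no RNA. Of the 3089 genes, 1496 had 0 counts in both libraries of the est_counts table, and 1761 did in the expected_count table. At least 10 counts were reached by 436 genes in replicate 1 and 540 in replicate 2 of the est_counts table. At 1 TPM or more in both libraries there were 222 genes, or 7.19% of the members. By the same measure 5.55% of 6058 genes with lincRNA transcripts and 55.8% of 21901 genes with protein-coding transcripts passed. For the expected_count table the number was 91 (2.95%), and 87 genes passed in both tables, which is 39.2% of the 222 and 95.6% of the 91. All antisense transcripts together held 0.135% of TPM in replicate 1 and 0.178% in replicate 2 of the est_counts table. The expected_count table gave 0.0586% and 0.0525%. Few genes made up most of this sum, since the 15 highest held 32.3% and 26.3% of the antisense TPM and the 100 highest 63.4% and 57.1%.

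Position relative to the sense gene went with detection. Of the 3089 genes, 1452 had up to 50% of their exon bases opposite exons of another gene, and 153 of these (10.5%) reached 1 TPM in both libraries of the est_counts table. For 380 genes over 50% of the exon bases lay opposite exons, and 17 of these (4.47%) reached that level. Of 1061 genes that overlapped only introns or the span of an opposite gene 34 (3.20%) did, and of 196 with no overlap 18 (9.18%) did. The class with the most sequence opposite exons was thus not the one most often detected. The classes also differ in size, with median exon lengths of 1356, 637, 771 and 731 bases in the order given. Genes that started head to head within 1 kb of an opposite-strand gene reached 1 TPM in 37 of 254 cases (14.6%), against 185 of 2835 (6.53%) for the others. The corresponding shares were 7.87% and 2.50% in the expected_count table. These shares are counts over genes of 1 tissue and were not tested.

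The bases around the start sites differed in the same way. RefSeq start windows (GRCm38.p6, 250 bases before to 50 bases after the start) were matched by symbol for 1130 antisense genes. Windows of the 114 genes at 1 TPM or more in both libraries held a median of 17 CG dinucleotides and 58.5% G and C. Windows of the other 1016 held a median of 5 and 51.3%, and windows of all 27025 genes a median of 7 and 52.7%. The GC box GGGCGG, searched on both strands, was present in 50.9% of the windows of the 114 genes, 24.5% of the other antisense genes and 35.9% of all genes. The TATA motif TATAAA was present in 10.5%, 11.0% and 14.2%, and CCAAT in 39.5%, 34.4% and 37.9%. A match to these letters is a description of the window and does not show a bound factor.

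**Figure D1:**
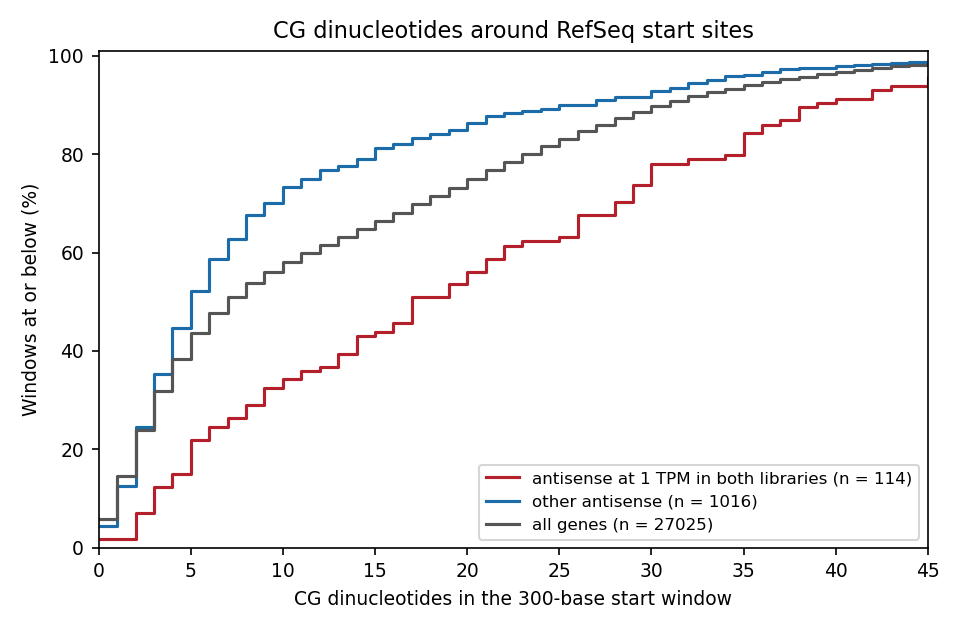
Cumulative share of RefSeq start windows (vertical axis, %) by the number of CG dinucleotides in the 300 bases (horizontal axis), for antisense genes at 1 TPM or more in both libraries, other antisense genes and all genes. The curve of the 114 detected genes lies to the right, with a median of 17 against 5 for the other antisense genes.

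The windows of 3 genes described further on span this range. Capitals mark the first 50 transcribed bases. The window of Sox6os (chr7:116031729-116032028, plus strand) held 26 CG dinucleotides, that of Hoxd3os1 (chr2:74716081-74716380, minus strand) 5, and that of Galnt6os (chr15:100695482-100695781, plus strand) 2.
Sox6os: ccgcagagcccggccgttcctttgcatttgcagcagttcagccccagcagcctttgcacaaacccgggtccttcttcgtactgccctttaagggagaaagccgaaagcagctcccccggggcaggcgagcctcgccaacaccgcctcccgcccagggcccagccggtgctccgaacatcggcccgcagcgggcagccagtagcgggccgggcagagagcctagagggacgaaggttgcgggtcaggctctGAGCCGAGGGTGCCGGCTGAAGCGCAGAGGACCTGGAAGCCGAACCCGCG
Hoxd3os1: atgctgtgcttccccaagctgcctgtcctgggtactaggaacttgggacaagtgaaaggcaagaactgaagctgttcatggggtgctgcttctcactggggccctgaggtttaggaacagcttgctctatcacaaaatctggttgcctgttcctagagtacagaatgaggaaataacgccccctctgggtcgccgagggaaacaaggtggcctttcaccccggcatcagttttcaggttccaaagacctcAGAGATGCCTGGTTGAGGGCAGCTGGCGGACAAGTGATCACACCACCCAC
Galnt6os: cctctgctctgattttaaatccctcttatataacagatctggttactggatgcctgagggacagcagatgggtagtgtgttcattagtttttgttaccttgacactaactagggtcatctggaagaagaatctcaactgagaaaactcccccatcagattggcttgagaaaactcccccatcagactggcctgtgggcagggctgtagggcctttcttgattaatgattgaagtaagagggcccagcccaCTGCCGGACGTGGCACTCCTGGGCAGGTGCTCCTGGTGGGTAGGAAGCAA

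A530020G20Rik (chromosome 3, 121531619 to 121536206, plus strand) led the ranking with 85.8 TPM in replicate 1 and 66.8 in replicate 2. It was also first by mean in the expected_count table, at 32.1 and 19.5 TPM, but Tug1 had the same 19.45 TPM in replicate 2 there. Slc44a3, the partner of A530020G20Rik, was at 9.29 and 9.36 TPM, below the antisense gene in both libraries. Tug1, a conserved and broadly expressed long noncoding RNA, followed at 52.0 and 52.9 TPM. Tug1 (chromosome 11, 3639785 to 3649673, minus strand) is typed antisense through its overlap with Morc2a, which was at 22.6 and 26.7 TPM. Both libraries of the est_counts table thus put A530020G20Rik above Tug1 and Tug1 above all other members.

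The third by mean was Tbx3os1, which overlaps Tbx3, a T-box repressor of organ patterning, on the opposite strand, at 35.2 and 37.9 TPM. Next by mean were 4930426D05Rik, opposite Klhl14, at 30.6 and 30.4 TPM, and Zfas1, the host of C/D small nucleolar RNAs opposite Znfx1, at 29.3 and 30.8 TPM. The order of the last pair differed between the libraries, so they were not separable. Between them by mean was Gm48765 at 19.0 and 41.3 TPM. It was above Tbx3os1 in replicate 2 and is treated further on because the tables disagree about it. Hand2os1 overlaps the sympathoadrenal transcription factor gene Hand2 on the opposite strand. It was at 18.9 and 32.7 TPM, so its place in the ranking differed between the libraries. The next members were less well known. 1810032O08Rik was at 27.4 and 22.9 TPM and 2310009A05Rik, opposite Pigb, at 26.6 and 22.9 TPM. Gm13594, opposite Cobll1, was at 12.4 and 27.6 TPM, and Gm16062, opposite Cops3 and 64 bases from the start of Flcn, at 23.4 and 16.5 TPM. Rab10os, opposite the membrane traffic gene Rab10, was at 14.02 and 21.3 TPM, and Gm26782, opposite the telomerase protein gene Tep1, at 14.9 and 18.8 TPM. Trmt61b was at 24.5 and 13.4 TPM, but this symbol belongs to a gene with other transcript types. Only its 3 antisense transcripts are counted. The annotation types Zfas1, Hand2os1, 1810032O08Rik and 2310009A05Rik as processed transcript genes, and for these too only antisense transcripts are counted. In all 143 member genes also had transcripts of another type.

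Across the 222 genes the libraries ranked the members alike, with Pearson's r = 0.876 on log2(TPM + 0.1) and Spearman's rho = 0.810. Over the 91 genes of the expected_count table r was 0.897 and rho 0.830. These describe the spread across genes, which share libraries and annotation and are not independent replicates.

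**Figure D2:**
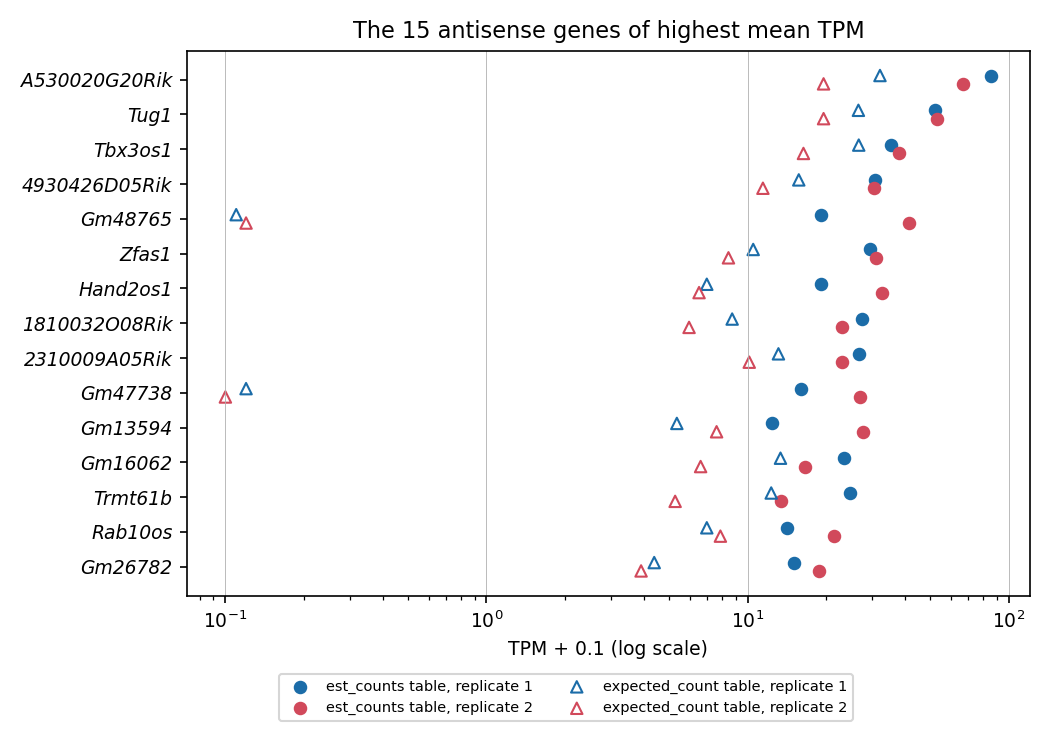
TPM plus 0.1 (horizontal log axis) of the 15 antisense genes with the highest mean in the est_counts table. Filled circles are the est_counts table and open triangles the expected_count table, each with 1 point per library. All but Gm48765 and Gm47738 stayed above 3 TPM in both tables.

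The symbol named a sense partner for 268 antisense genes, and for 233 of these the spans overlapped. Of these pairs 30 had an antisense gene at 1 TPM or more in both libraries. Partner levels are sums over all transcripts of the partner gene, while antisense levels take antisense transcripts only. The pairs thus compare unlike sets of transcripts. The antisense gene was below its partner in 21 pairs and above it in 6 pairs in both libraries. The order differed between libraries in 2 pairs, Hoxb5os and Ccdc142os, and the partner Speer4c was listed at 0 in both. The median antisense to sense ratio of TPM was 0.196 in replicate 1 and 0.280 in replicate 2. For the 17 pairs with an antisense gene at that level in the expected_count table the medians were 0.862 and 0.605, with 9 pairs below, 4 above and 4 of differing order. Across all 268 pairs the antisense and sense TPM were weakly related, with Spearman's rho = 0.229 and 0.246, a description over genes that share libraries.

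Developmental transcription factor loci gave 7 of the 30 pairs. Of 31 antisense genes whose symbols name such a factor by prefix, 8 reached 1 TPM in both libraries and 10 had 0 counts in both. The prefix also took in Nrg3os, named for a neuregulin and not for a factor. Tbx3 was at 180 and 133 TPM, so Tbx3os1 held 0.196 and 0.286 of its partner's level. Hand2os1 exceeded Hand2, which was at 12.8 and 21.6 TPM, by ratios of 1.48 and 1.51, with both genes higher in replicate 2. By the expected_count table Hand2os1 was below Hand2, with ratios of 0.862 and 0.605, so the order of this pair depended on the table. Sox6os was close to Sox6, an SRY-related factor, with ratios of 1.03 and 1.10 in the est_counts table, from only 17 and 24 antisense counts, and 1.09 and 0.695 in the other. Zeb2os was at 3.49 and 4.07 TPM against 116 and 110 for Zeb2, ratios of 0.0299 and 0.0371. Opposite other transcription factor genes, which the list does not hold, Runx2os1 held 0.192 and 0.198 of the level of Runx2. Sp3os was at 6.73 and 4.70 TPM against 27.0 and 30.8 for Sp3.

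Among the Hox genes, which set position along the body axis, 4 of 6 antisense genes reached 1 TPM in both libraries. Hoxb5os was at 11.9 and 9.78 TPM while Hoxb5 was at 7.56 and 11.7, so their order turned between the libraries. Hoxb3os was at 1.39 and 1.75 TPM against 14.1 and 21.6 for Hoxb3. Hoxd3os1 was at 2.59 and 6.79 TPM with Hoxd3 at 0.124 and 0.882, an antisense excess of 20.9-fold and 7.70-fold. This excess rests on 19 and 32 antisense counts and on 7.36 and 10.1 counts of Hoxd3. Hoxaas3, which runs over the Hoxa7 region, was at 1.32 and 1.86 TPM, from 13 and 12 counts. Hoxa11os had no counts in either library.

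Outside the developmental factors, 3 further genes were above the partner that the symbol names in both libraries. Brip1os was at 8.10 and 7.18 TPM and Brip1, a helicase of DNA repair, at 0.808 and 0.838, ratios of 10.03 and 8.58. Brip1os starts 177 bases from Brip1 on the opposite strand, their spans do not overlap, and its exons lie over Med13, which was at 25.6 and 30.1 TPM. Ctcflos was at 2.69 and 6.44 TPM with Ctcfl at 0.380 and 0.374, ratios of 7.09 and 17.2. Rab26os was at 2.01 and 5.74 TPM with Rab26, a secretory granule GTPase, at 0.437 and 2.41, from 8 and 19 antisense counts. For Brip1os, Hoxd3os1, Ctcflos and Rab26os the antisense excess was also present in both libraries of the expected_count table. For Hoxd3os1, Ctcflos and Rab26os its size is uncertain, because the partners had few counts. Ctcfl had 27.2 and 22.1 counts in the est_counts table and 3 and 2 in the other, where the ratios were 67.0 and 151. Rab26 had 10 and 58 counts in the first and 9 and 46.0 in the other. Among the pairs with less antisense than sense RNA, the ratios ranged widely. Zbtb11os1 held 0.390 and 0.681 of the level of the zinc finger gene Zbtb11, and Ttc39aos1 0.716 and 0.529 of Ttc39a. Junos was at 4.58 and 8.14 TPM against 155 and 95.5 for the AP-1 gene Jun. Tmem147os was at 6.51 and 14.6 TPM against 139 and 142 for Tmem147, which it faces from a start 39 bases away.

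**Figure D3:**
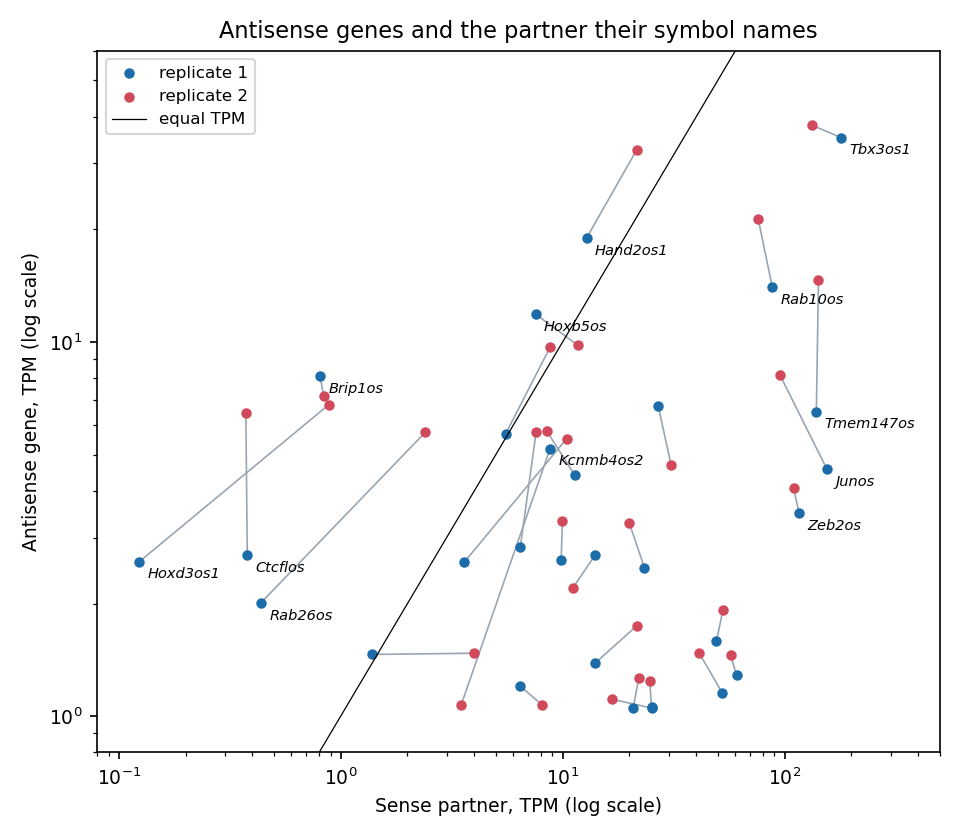
TPM of the antisense gene (vertical log axis) against TPM of the sense partner its symbol names (horizontal log axis) in the est_counts table, for the pairs with an antisense gene at 1 TPM or more in both libraries and a partner above 0. Each line joins replicate 1 and replicate 2 of 1 pair, and points left of the diagonal have more antisense than sense TPM, as Brip1os, Ctcflos, Hoxd3os1 and Rab26os do.

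The list of imprinted loci held 4 members, with Airn and Kcnq1ot1 left out beforehand by the choice of members. These 4 summed to 5.14 and 7.56 TPM in the est_counts table, which does not measure imprinted antisense RNA as a whole. Snhg14, the long host transcript of small nucleolar RNAs that runs against Ube3a, was at 4.67 and 6.47 TPM. Nespas, antisense at the Gnas locus, was at 0.468 and 1.06 TPM. Igf2os had 1 count in each library, and Tsix, the antisense gene of Xist, had 0 and 1 counts in these male samples.

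The tables differed in scale for antisense genes and ranked them only partly alike. Over the 242 genes at 1 TPM or more in either table in replicate 1 the median log2 ratio of the expected_count to the est_counts table, with 0.1 TPM added to each, was -1.04 and the SD 1.56. Over the 335 such genes in replicate 2 the median was -1.48 and the SD 1.57. Across these genes Spearman's rho between the tables was 0.606 and 0.540 and Pearson's r on the log2 scale 0.499 and 0.454. For protein-coding transcripts rho was 0.964 and 0.961 and r 0.934 and 0.931, all of them descriptions over genes of the same reads. A shift of this kind touched all genes, since protein-coding transcripts had medians of -0.76 and -1.17. With TPM rescaled over nuclear protein-coding transcripts the antisense medians were -0.25 and -0.34. Within 2-fold of their own median lay 79.8% and 74.6% of the antisense genes, against 60.6% and 57.8% of genes with lincRNA transcripts and 96.1% and 96.2% of those with protein-coding transcripts. The antisense SD was above that of protein-coding transcripts, 0.71 in each library.

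Agreement fell with the sequence a gene shares with others. For each member the share of its 31-base words that occur on the same strand in transcripts of another gene was counted. The 101 genes in replicate 1 with no shared word had a median log2 ratio of -0.95 with an SD of 0.83, and 136 in replicate 2 had -1.32 with 0.86. Genes with over 50% shared words had medians of -4.09 (13 genes) and -4.92 (16 genes). Of the members at 1 TPM in both libraries of the est_counts table, 13 had over 50% shared words, and 1 of them also passed in the expected_count table. Of 88 with no shared word, 38 passed in both.

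Gm48765 (chromosome 13, 36006725 to 36189723, minus strand) shows this most clearly. It had 939 and 1677 counts in the est_counts table and 1 and 2 in the expected_count table, and 94.0% of its words were shared. Gm47738 (chromosome 10) had 605 and 841 against 1 and 0 counts, with 68.3% of words shared. Gm47578 (chromosome 10) had 949 and 2024 against 2 and 3, with 90.4%, and Gm48754 437 and 611 against 0 and 1, with 94.6%. The stretches shown here are the parts of the first pair that most other genes hold. The 30 bases of Gm48765 (chr13:36189541-36189570, minus strand) lie in a word found in 54 other genes, and the same stretch is in Gm47578. Those of Gm47738 (chr10:53570082-53570111, plus strand) lie in a word found in 13 other genes. Capitals mark the shared bases.
Gm48765: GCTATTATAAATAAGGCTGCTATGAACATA
Gm47738: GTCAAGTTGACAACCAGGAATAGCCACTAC
Not every case had this feature. Gm16157 had 60.7 and 27.2 against 1 and 0 counts with 2.37% of words shared, although 1 of its words occurs in 205 other genes. In all, 28 of the 222 genes had 3 or fewer expected counts in each library, and these held 7.82% and 10.4% of the antisense TPM of the est_counts table. Their levels are therefore uncertain.

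On the deposited TPM the opposite difference was rarer. The expected_count table was lower on that scale for protein-coding transcripts too, with medians of -0.76 and -1.17. The count given next includes this shift and was not repeated on rescaled TPM or over all genes. Of 224 genes that reached 1 TPM in either table of both libraries and differed in the same direction, 6 were higher in the expected_count table. Gm20400 (chromosome 6, opposite Slco1a6) was listed at 0 in the est_counts table and at 8.95 and 10.7 TPM, from 179 and 234 counts, in the other. Snhg9, a short host gene of a small nucleolar RNA next to Rps2, was listed at 0 in the first and at 3.71 and 2.15 TPM, from 11 and 7 counts, in the other. Their shared words were 0.325% and 0%. Also higher there were 2900060B14Rik, Rab26os and C920021L13Rik, with mean log2 ratios of 2.58, 1.09 and 1.08. The libraries differed in these ratios, at 3.59 and 1.57, 1.96 and 0.21, and 0.31 and 1.84 in the order given. The est_counts behind them were few, at 1 and 2, 8 and 19, and 12.0 and 11.0.

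**Figure D4:**
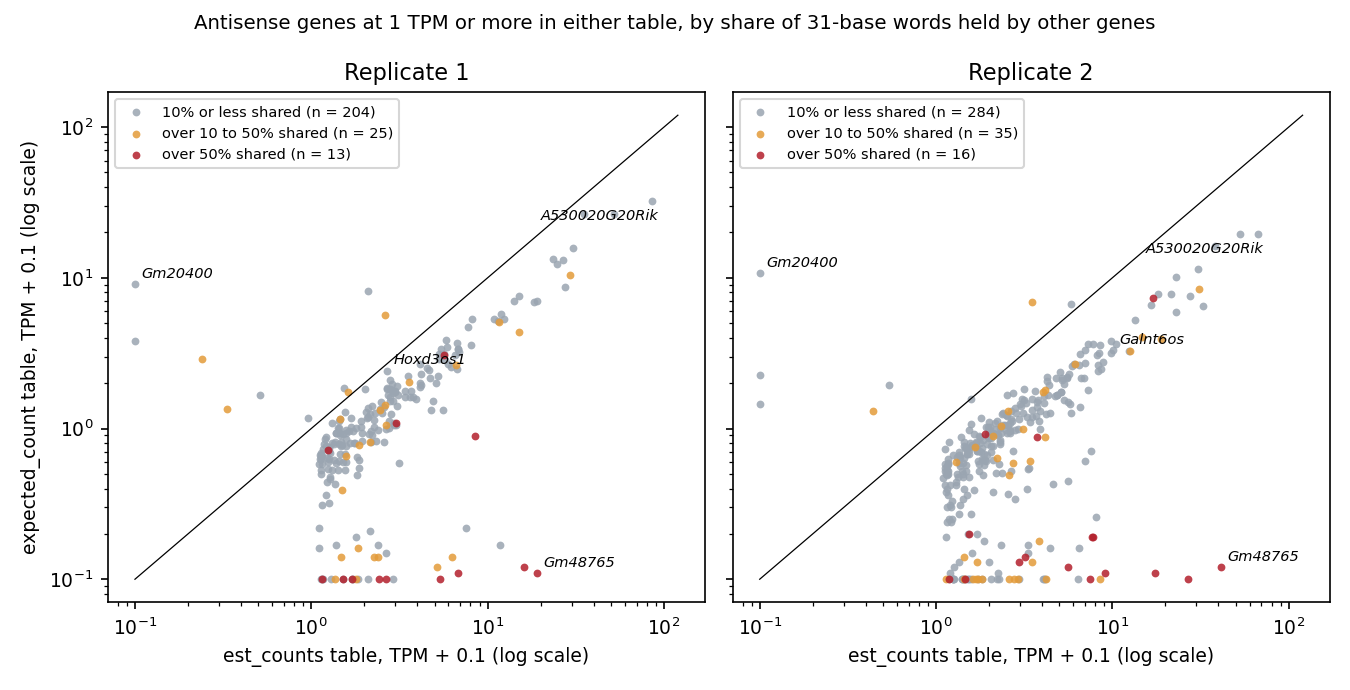
TPM plus 0.1 of antisense genes in the expected_count table (vertical log axis) against the est_counts table (horizontal log axis) in each library, for genes at 1 TPM or more in either table. Colours give the share of 31-base words held by other genes; the points over 50% lie mostly along the bottom edge, while Gm20400 lies at the left edge.

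The libraries were compared gene by gene with a two-sided exact binomial test on est_counts, scaled by TMM and adjusted by Benjamini-Hochberg over all genes at a mean of 1 or more on the CPM scale (counts relative to the library total). A gene was called at an adjusted p under 0.05 and a ratio of at least 2-fold. With 1 library on each side the test covers counting error only and compares these libraries. Of 15600 genes tested 8.08% were called. Of the 204 antisense genes tested 35 (17.2%) were called, 32 of them higher in replicate 2 (background 5.94%) and 3 higher in replicate 1 (background 2.14%). The median log2 ratio of replicate 2 to replicate 1 was 0.36 over the 204 genes and -0.07 over all genes tested. By the expected_count table, 11.8% (18 of 153) of the antisense genes were called against 6.62% of all genes, with medians of 0.27 and -0.05. There 16 were higher in replicate 2 (background 4.66%) and 2 higher in replicate 1 (background 1.96%). Of the 35 genes, 18 could be tested in the expected_count table and 16 of these were called there in the same direction. The rest fell under the CPM filter there, so their calls rest on the est_counts table. Expected counts among them ran from 0 and 0 (Gm13977) and 2 and 3 (Gm47578) to 26.1 and 33.6 (Gm10125).

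The shares differed with the level of a gene. Of antisense genes with a mean CPM from 1 to 2, 19 of 103 (18.4%) were called, against 22.4% of protein-coding genes at that level. From 2 to 5 CPM it was 12 of 64 (18.8%) against 11.5%, and at 5 CPM or more 4 of 37 (10.8%) against 3.24%. The shares from 2 to 5 CPM were 7.69% and 9.90% in the expected_count table, and at 5 CPM or more 9.09% and 2.95%. The lincRNA genes were called at 23.0%, 22.2% and 25.3% in the same order of levels in the est_counts table. The expected_count table gave 18.4%, 16.3% and 11.1% for them. Antisense genes were thus called less often than protein-coding genes in the lowest class and more often in the highest class of both tables. For the highest class this rests on only 4 and 2 called antisense genes. Scaling by spike-in counts moves all log2 ratios of the est_counts table by -0.77 and gives a median of -0.41 over the antisense genes and -0.85 over all genes tested. Under that scaling 19.6% of antisense genes and 35.4% of all genes were called, so which share was larger depended on the scaling. With no filter on low counts 103 of 1587 antisense genes (6.49%) were called, against 7.82% of all genes, so the antisense share was not above the background there. Of the listed genes only 6 could be tested, 5 of the developmental factor list and Snhg14, which the imprinted locus and small RNA host lists share. None of these was called, and at a background of 8.08% so few genes show little.

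**Figure D5:**
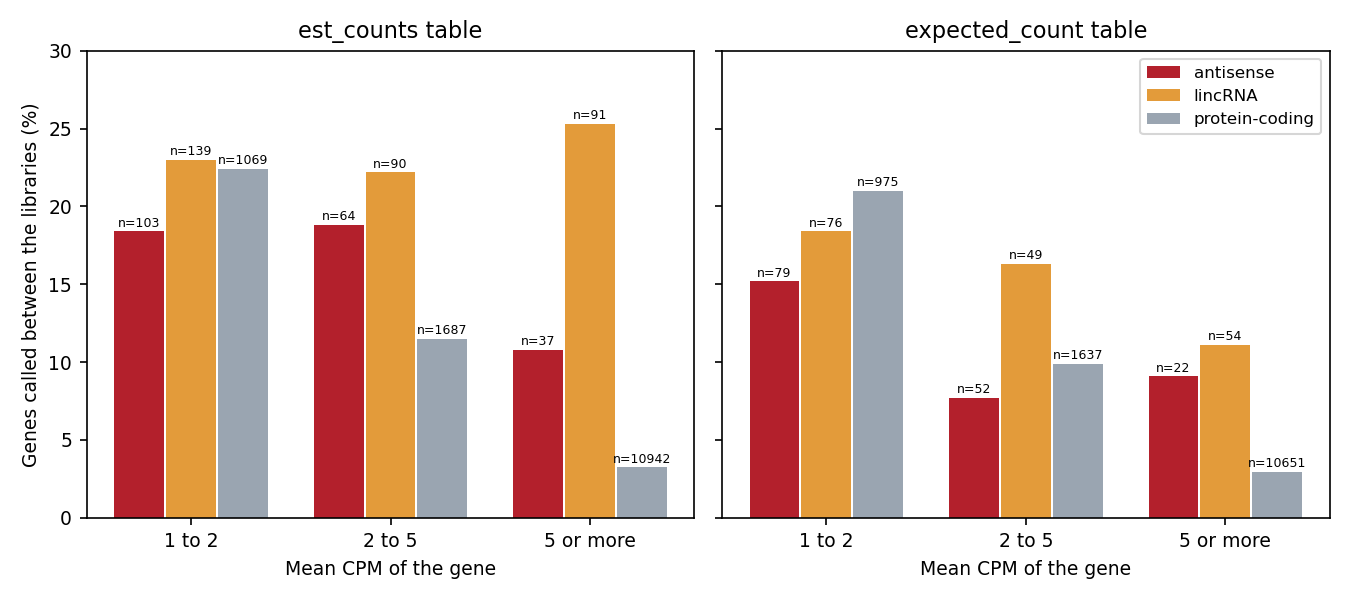
Share of tested genes called different between the 2 libraries (vertical axis, %) by mean CPM for antisense, lincRNA and protein-coding genes in each table, with the number tested above each bar. In the lowest class antisense genes (18.4%) lie below protein-coding genes (22.4%) in the est_counts table.

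Among the called genes Galnt6os stood out. It had 0 counts in replicate 1 and 106 in replicate 2 of the est_counts table, and 0 and 98 in the expected_count table. With replicate 1 set to the floor of 3 counts it was 39.6-fold higher in replicate 2. On the observed counts the adjusted p was 7.07e-34 (exact binomial test) and the exact 95% lower limit of the ratio was 31.6. Galnt6 itself had 256 and 335 counts, a log2 ratio of 0.55. The 4 acinar genes, all measured, had 6 counts in the library without Galnt6os counts and 198942 in the other, and liver markers (Alb and Apoa1) were at 17.5 and 178 TPM. Brown fat markers (Ucp1 and Elovl3) were at 240 and 635 TPM and erythroid markers (Hba-a1 and Hbb-bs) at 6002 and 3485 TPM. The part of RNA from other organs in this and the other differences between the libraries was not tested.

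Other genes higher in replicate 2 had partners that did not move with them past 2-fold. H3f3aos had 31.8 and 95.5 counts, 3.36-fold higher (95% interval 2.23 to 5.18, adjusted p = 1.25e-09, exact binomial test), while H3f3a, which encodes histone H3.3, had a log2 ratio of -0.37. Gm49417 had 46.0 and 141 counts, 3.41-fold higher (2.43 to 4.86), while its partner Ppp3cc, a calcineurin subunit, had a log2 ratio of 0.01. 5031415H12Rik had 12.4 and 52.5 counts, 4.94-fold higher (2.61 to 10.2), while Dlgap1, a postsynaptic scaffold gene, had -0.87. Ctcflos had 98 and 186 counts, a log2 ratio of 1.08, and 99 and 192 in the expected_count table. Gm21847 (29.4 and 114 counts) and Gm49015 (0 and 66.2) were also called, but 73.7% and 100% of their words are shared. The expected_count table gave them 0 and 2.79 and 1 and 0 counts, so these differences rest on 1 table. Spike-in scaling, which moves each log2 ratio by -0.77, takes H3f3aos (1.73), Gm49417 (1.76) and Ctcflos (1.08) under 2-fold. It leaves 5031415H12Rik (2.26), Gm21847 (2.12) and Gm49015 (7.22) above it.

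The genes higher in replicate 1 were 3. Kcnmb4os2 had 89 and 16 counts, 4.97-fold higher in replicate 1 (2.90 to 9.07, adjusted p = 5.17e-11, exact binomial test). Its partner Kcnmb4 had 198 and 58.2 counts, a log2 ratio of -1.59 in the same direction. Gm17276 had 443 and 97.7 counts, 4.04-fold higher in replicate 1 (3.24 to 5.08), with Notch3 at -0.11. The antisense transcripts of Trmt61b had 521 and 216 counts, 2.15-fold higher (1.84 to 2.54). Kcnmb4os2 and Gm17276 were called in the expected_count table as well, while Trmt61b, at a log2 ratio of -0.84, stayed under 2-fold. Of the 29 called genes whose partner had at least 10 counts in all, the partner passed 2-fold in the same direction in 1, Kcnmb4. Across the 167 tested members with such a partner the log2 ratios of member and partner had Pearson's r = 0.135 and Spearman's rho = 0.056, a description over genes that share the libraries.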

How the data were processed

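Total RNA from the adrenal glands of 36-day-old male mice was sequenced in 2 libraries that form 1 group. Estimated counts (est_counts) and expected counts were deposited by the authors per transcript, not as whole numbers, together with TPM that the authors scaled over all entries of a table. Per the labels and the notes deposited with the files, genes follow GENCODE M21 on mm10; neither names the programs, their versions or strand settings. All 141767 transcripts matched the annotation. Values were summed per gene over antisense transcripts only. The members and gene lists were chosen with earlier results of these data known.

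Counts were rounded and tested with scipy 1.17.1 (exact binomial, two-sided, 0.5 added for log2 ratios), TMM from edgeR 4.0.16 (factors 0.941 and 1.06) in R 4.3.3, with Python 3.11.15, numpy 2.4.6, pandas 2.3.3 and matplotlib 3.10.9. The quasi-likelihood test of edgeR needs replicates on a side and was not possible. The binomial test was run on simulated data that held counting error only. That check cannot cover spread between libraries or errors of quantification. Partners were read from symbols and from overlap. The text names the 15 members highest by TPM, up to 20 by symbol-named partner, 6 in each direction by table ratio and by library ratio, and listed genes of at least 0.5 TPM. Intervals are exact 95% limits. Neither they nor the 3-count floor cover more than counting error, and the labels name no molecular identifiers that would tell PCR copies apart. Alternatives were thresholds, pseudocounts, filters, scalings (DESeq2 1.42.0 size factors, total, spike-ins), both tables, the edgeR exact test at a coefficient of variation of 0.1 and each replicate left out. 1 member that the naming rule takes in is not reported here.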

Additional observations from a re-analysis of the deposited data

How the results depend on the processing

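Counts of detected genes depend on the unit. The 222 antisense genes at 1 TPM in both libraries became 376 at 0.5 TPM, 45 at 5 TPM, 91 in the expected_count table and 395 with TPM rescaled over nuclear protein-coding transcripts. Chosen after seeing the data, the expected_count table on that scale gave 281, and leaving out genes with over 10% shared words 187. The summed level was 0.157% of TPM on average, 0.0555% in the expected_count table and 0.333% on the protein-coding scale. The log2 ratio between tables had a median of -1.26 (mean of the libraries), which became -0.92 without a filter, -0.26 with counts as shares and -0.29 on the protein-coding scale. Its SD of 1.57 became 0.954 with 0.5 TPM added, 2.49 with 0.01 TPM, 1.11 without a filter, 2.23 at 5 TPM, 1.498 with shares, 2.13 on the protein-coding scale and 1.27 without genes over 10% shared words. The share within 2-fold of the median, 77.2%, became 85.6% with 0.5 TPM added and 83.5% without those genes. The 35 calls between the libraries, 32 of them higher in replicate 2, became 103 and 97 without a filter (6.49% of antisense and 7.82% of all genes), 4 and 2 at 5 CPM or more (10.8% and 3.80%), 18 and 16 in the expected_count table, and 75 and 67 at 1.5-fold. They became 23 and 20 without genes over 10% shared words and 7 and 5 without any shared word, both chosen after seeing the data. With spike-in scaling 40 antisense genes (19.6%) were called, 4 of them higher in replicate 2, against 35.4% of all genes, and the median log2 ratio was -0.41 in place of 0.36, with all genes at -0.85. DESeq2 size factors, total counts and the edgeR exact test gave 32, 49 and 33 calls. The median antisense to sense ratio, 0.238, was 0.733 in the expected_count table, where fewer pairs reach 1 TPM. No paired analysis was possible because the 2 libraries form 1 group. With 1 replicate left out, 236 to 330 genes reached 1 TPM; the libraries' comparison cannot be made without 1 of them. The antisense genes rest on few counts, so most could not be tested between libraries, and spread between animals was not measured beyond these libraries.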
